A study of Mus musculus with 25 samples.

Results

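The Frizzled receptors of the forming mouse palate were examined as a family. The members are the 10 genes Fzd1 to Fzd10, found in the expression table by gene symbol and gene ID, and all 10 were present among its 37406 genes. Expression was measured by RNA-Seq in 25 libraries from wild type CD1 embryos at E14.5, shortly after the palatal shelves fuse at the midline. Tissue was isolated by laser capture microdissection, in which chosen areas are cut from a section under the microscope. Medial, lateral, oral and nasal compartments were taken from the anterior and from the posterior palatal shelves, giving 8 compartments with 3 libraries each, except the anterior nasal compartment with 4. There was no treatment or mutant group. Medial and lateral areas divide the same shelf that oral and nasal areas divide in the other direction, so the 4 compartments of each region, anterior or posterior, are overlapping views of 1 tissue.

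Frizzled proteins are receptors with several membrane spans and an extracellular cysteine-rich domain that binds secreted Wnt proteins. With the co-receptors Lrp5 and Lrp6 they stabilize beta-catenin, and with Vangl, Celsr and Prickle proteins they orient cells in the plane of a tissue. Fzd4 also binds Norrin, a ligand that is not a Wnt. Mice lacking both Fzd1 and Fzd2 are known to develop cleft palate.

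Values are RPKM, read numbers scaled to transcript length and to the reads of the library, which allows levels of different genes to be set side by side. The reads behind the values, as implied by the RPKM steps, lay between 1.64 and 6.56 M per library (median 3.27). These totals are lower than the average number of sequenced reads per sample that the authors state. A single read on Fzd8 was worth 0.0456 to 0.182 RPKM depending on the library, so the low members rest on few reads. Fzd8 had 14.3 to 215 implied reads per library, Fzd5 had 7 to 472 and Fzd6 had 0 to 125.5, whereas Fzd1 had 239 to 1540. No word of 50 bases, the read length, was shared between the annotated transcripts of any 2 members, so reads could be assigned to single Frizzled genes. Names of the alignments place the libraries in 8 sequencing runs and carry the tag Tgfbr2_WT in 4 libraries and ERK2_WT in 2, although the labels give every embryo as wild type CD1. In the bulk tissue, fewer cells of a type and less RNA per cell cannot be told apart.

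The upstream sequences of Fzd1 and Fzd7 are shown because they are abundant members of 1 subgroup of the family, of which Fzd1 was called between anterior and posterior and Fzd7 was not. RefSeq windows of the GRCm38.p6 build were held for 6 of the 10 members, and the windows of Fzd4, Fzd5, Fzd9 and Fzd10 overlap annotated exons. The 250 bases before the start of Fzd1 lie at chr5:4758217-4758466 on the minus strand, and those of Fzd7 at chr1:59481897-59482146 on the plus strand. Both are printed 5′ to 3′ on the gene's own strand. Capitals mark matches, on either strand, to CTTTGA (the core bound by TCF/LEF factors), GGGCGG (the GC box) and TATAAA (the TATA box).
Fzd1: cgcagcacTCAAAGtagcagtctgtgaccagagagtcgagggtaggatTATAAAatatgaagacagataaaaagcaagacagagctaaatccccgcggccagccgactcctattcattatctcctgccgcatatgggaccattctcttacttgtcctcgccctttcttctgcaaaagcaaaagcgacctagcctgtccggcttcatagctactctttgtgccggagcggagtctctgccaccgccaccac
Fzd7: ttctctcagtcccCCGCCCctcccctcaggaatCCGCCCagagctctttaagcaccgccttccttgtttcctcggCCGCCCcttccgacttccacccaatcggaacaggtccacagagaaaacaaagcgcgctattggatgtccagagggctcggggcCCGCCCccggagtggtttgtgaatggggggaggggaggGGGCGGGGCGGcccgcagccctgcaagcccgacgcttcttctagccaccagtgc
The Fzd1 window held 1 TCF/LEF core and 1 TATA box match, both toward the end of the window farthest from the start, and no GC box match. The Fzd7 window held 6 GC box matches, 2 of which overlap, and neither of the other motifs. Among 32851 promoter windows of this length, 13.8% held the TCF/LEF core, 32.7% the GC box and 12.4% the TATA box. GC content was 51.2% for Fzd1 and 65.2% for Fzd7, against a median of 52.4%.

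Fzd2, Fzd1, Fzd7 and Fzd3 made up most of the Frizzled expression at every position. Fzd2 averaged 44.5 RPKM ± 11.0 (SD, n = 25), Fzd1 36.7 ± 11.8, Fzd7 19.3 ± 4.58 and Fzd3 13.6 ± 2.82. Fzd2 (chr11:102465745-102469372 in mm9, 1 exon), Fzd1 (chr5:4753839-4758216, 1 exon) and Fzd7 (chr1:59538991-59543799, 1 exon) form a closely related subgroup of the family. Together they held 71.1% ± 2.72 of the summed RPKM of the 10 genes, with a range from 64.5% to 75.4% over libraries. Fzd3 (chr14:65811278-65881300, 7 exons), a receptor of planar cell polarity and axon guidance, held 9.77% ± 2.41. An annotated gene inside the Fzd3 interval, Gm9086, was listed at 0 in every library.

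The other 6 members were lower. Fzd4, the Norrin receptor (chr7:96552876-96558620, 2 exons), averaged 9.36 RPKM ± 3.10. Fzd8 (chr18:9212854-9216199, 1 exon) averaged 4.72 ± 2.53 and Fzd6 (chr15:38837826-38869736, 7 exons), which acts in hair and skin polarity, 4.21 ± 3.06. Fzd9 (chr5:135724808-135726917, 1 exon) averaged 3.42 ± 3.01, Fzd10 (chr5:129106981-129109968, 1 exon) 3.35 ± 2.33 and Fzd5 (chr1:64777132-64784324, 2 exons) 2.13 ± 2.37. Neighbours in this order overlapped in every case. Fzd7 exceeded Fzd3 in 24 of 25 libraries and Fzd4 exceeded Fzd8 in 22, whereas Fzd2 exceeded Fzd1 in only 15 and Fzd9 exceeded Fzd10 in 12. The summed RPKM of the family was 134 ± 18.2 in the 13 anterior libraries and 150 ± 23.9 in the 12 posterior libraries.

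**Figure D1:**
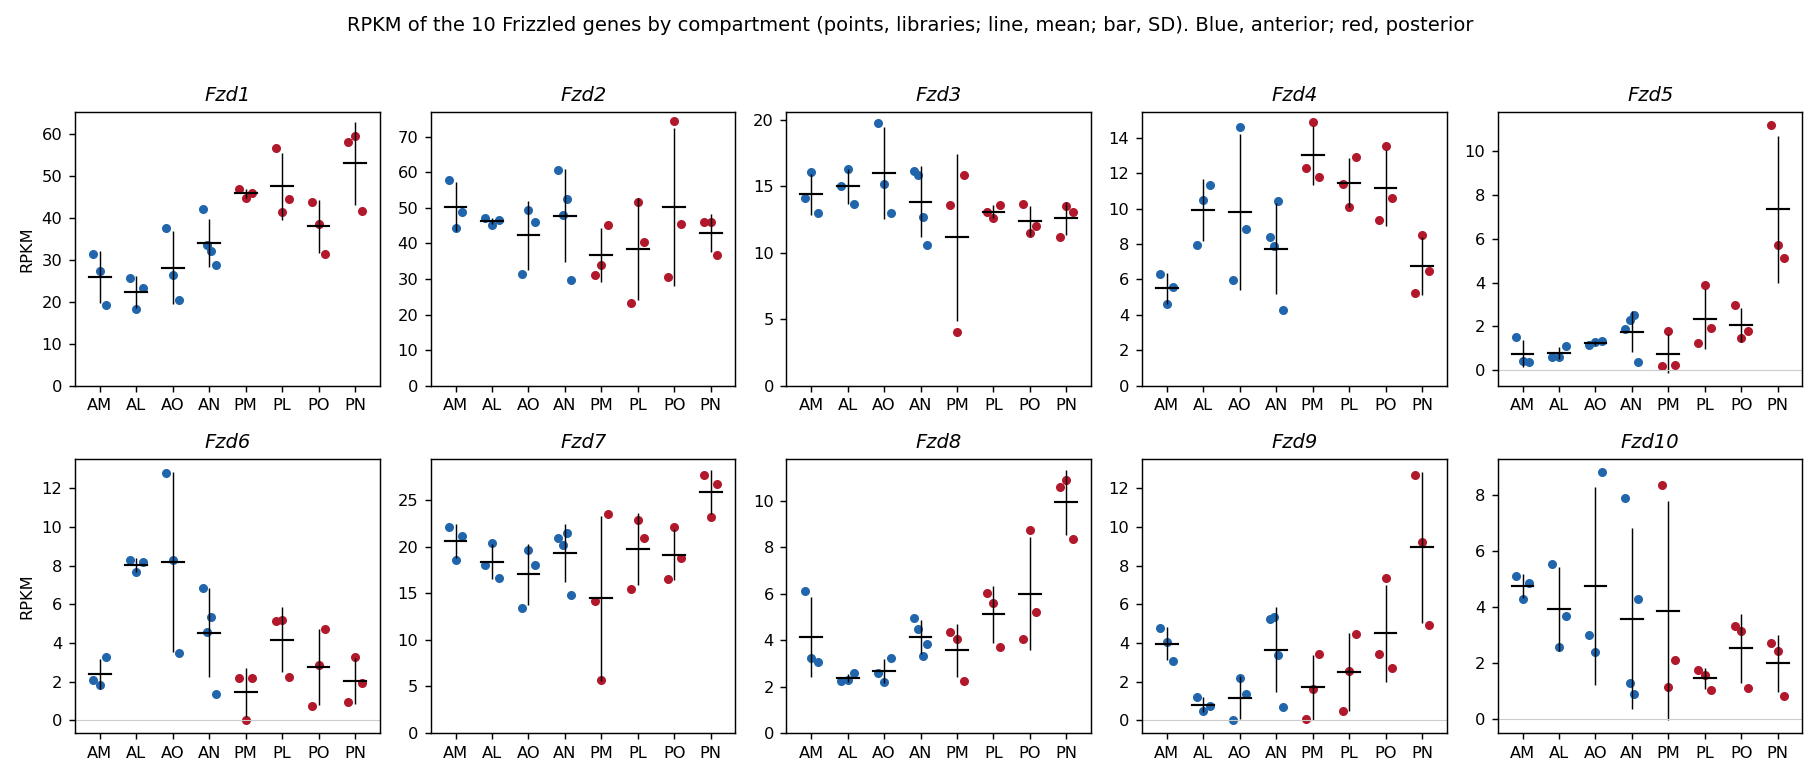
RPKM of each Frizzled gene (vertical axes, linear, each gene on its own scale) in the 8 compartments (horizontal axes; AM, AL, AO and AN are anterior medial, lateral, oral and nasal, PM, PL, PO and PN the posterior ones). Points are libraries, lines means and bars SD. Fzd1 is higher in posterior compartments, and Fzd1, Fzd5, Fzd7, Fzd8 and Fzd9 have their highest mean in the posterior nasal compartment. The test over all 8 compartments called Fzd1, Fzd5 and Fzd8 and no other member.

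Variation over the 8 compartments was tested for each gene in 1 fit of all libraries with limma's moderated F test, over the 11913 genes that reached 5 RPKM in 3 or more libraries. Of the 10 members, 3 passed an adjusted p of 0.05, against 4.42% of all genes tested. They were Fzd8 (adjusted p = 0.00484), Fzd1 (adjusted p = 0.0127) and Fzd5 (adjusted p = 0.029). Fzd5 entered this test only through its 3 posterior nasal libraries, where it is high, so the count of 3 is a description. With no minimum the adjusted p was 0.0127 for Fzd8, 0.0348 for Fzd1 and 0.0468 for Fzd5 (limma). Fzd2, the highest member, had an adjusted p of 0.941 and a ratio of 1.37 between its highest and lowest compartment means. The corresponding ratios were 2.37 for Fzd1, 4.2 for Fzd8 and 9.77 for Fzd5. None of the 3 passed when the sequencing run was added to the fit, and Fzd8 alone passed without the 6 libraries tagged Tgfbr2_WT or ERK2_WT (limma adjusted p = 0.0399).

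The main anterior-posterior difference of the family was in Fzd1. Its RPKM was 31.4, 27.3 and 19.2 in the anterior medial libraries, 25.7, 18.2 and 23.2 in anterior lateral, 37.6, 26.4 and 20.4 in anterior oral, and 42.1, 33.4, 32.0 and 28.7 in anterior nasal. In the posterior it was 46.8, 44.7 and 45.9 in medial, 56.5, 41.4 and 44.4 in lateral, 43.8, 38.6 and 31.4 in oral, and 57.9, 59.4 and 41.5 in nasal. The medial and the lateral libraries did not overlap between anterior and posterior, whereas the oral and the nasal ones did. The mean was 28.1 RPKM ± 7.14 in the anterior and 46.0 ± 8.26 in the posterior.

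With libraries pooled into anterior and posterior, over the 8608 genes that reached 10 RPKM in 6 or more libraries, Fzd1 was higher in the posterior by 0.73 on the log2(RPKM + 0.1) scale (SE 0.13, limma adjusted p = 0.000858). It was the single member called of the 5 tested, against 3.32% of all genes and 1.66% in this direction. Fzd2 differed by -0.19 (adjusted p = 0.598), Fzd3 by -0.30 (adjusted p = 0.35) and Fzd4 by 0.39 (adjusted p = 0.317). For Fzd7 the difference was -0.01 with a 95% interval from -0.37 to 0.35, and its sign was not stable between settings. Both regions were held by 3 runs, C, G and H, lettered in order of run name. Run C held oral and nasal libraries of both regions, 2 anterior and 2 posterior. Run G held 3 anterior medial libraries and 5 posterior ones from medial, oral and nasal. Run H held 1 anterior lateral library and 3 posterior lateral or nasal ones, so compartments are mixed in runs G and H. These 3 runs gave Fzd1 differences of 1.05, 0.76 and 0.87, and within each of them every posterior library exceeded every anterior one. Fzd10 was the other member without overlap in all 3, lower in the posterior by differences of -1.01, -1.33 and -1.68, and 2.12% of 11913 genes had no overlap in the same direction in all 3 runs.

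Since Fzd5, Fzd6, Fzd8, Fzd9 and Fzd10 missed the minimum of 10 RPKM, the difference was also averaged over the 4 compartments in the fit of 11913 genes, a comparison chosen after the data were seen. The members called were Fzd1 and Fzd8, both higher in the posterior, against 4.94% of all genes in either direction and 2.38% in this direction. Fzd1 was higher by 0.76 (SE 0.12, limma adjusted p = 0.000376) and Fzd8 by 0.80 (SE 0.15, limma adjusted p = 0.00246). Fzd8 reached 5 RPKM in 1 of 13 anterior and 7 of 12 posterior libraries, so it passed the minimum through the posterior, where it is high, and with no minimum its adjusted p was 0.00612 (limma). With sequencing run in the fit Fzd1 remained called (0.96, adjusted p = 0.0135) and Fzd8 did not (0.55, adjusted p = 0.589). Without the 6 tagged libraries, the differences were 0.60 for Fzd1 (limma adjusted p = 0.0182) and 0.80 for Fzd8 (limma adjusted p = 0.0193).

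Fzd8, a Wnt receptor of low level here, showed the same direction in 3 of the 4 compartments. Its RPKM was 6.14, 3.25 and 3.04 in anterior medial, 2.25, 2.29 and 2.57 in anterior lateral, 2.60, 2.18 and 3.22 in anterior oral, and 4.97, 4.48, 3.31 and 3.82 in anterior nasal. The posterior values were 4.36, 4.07 and 2.25 in medial, 6.04, 5.61 and 3.72 in lateral, 4.05, 8.74 and 5.23 in oral, and 10.6, 10.9 and 8.35 in nasal. Lateral, oral and nasal libraries did not overlap between anterior and posterior, and the medial ones did. Within runs C, G and H the posterior minus anterior difference was 0.88, 0.45 and 1.09, with compartments mixed in runs G and H as for Fzd1. In the run with 3 anterior and 5 posterior libraries 2 of the 5 exceeded every anterior one.

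**Figure D2:**
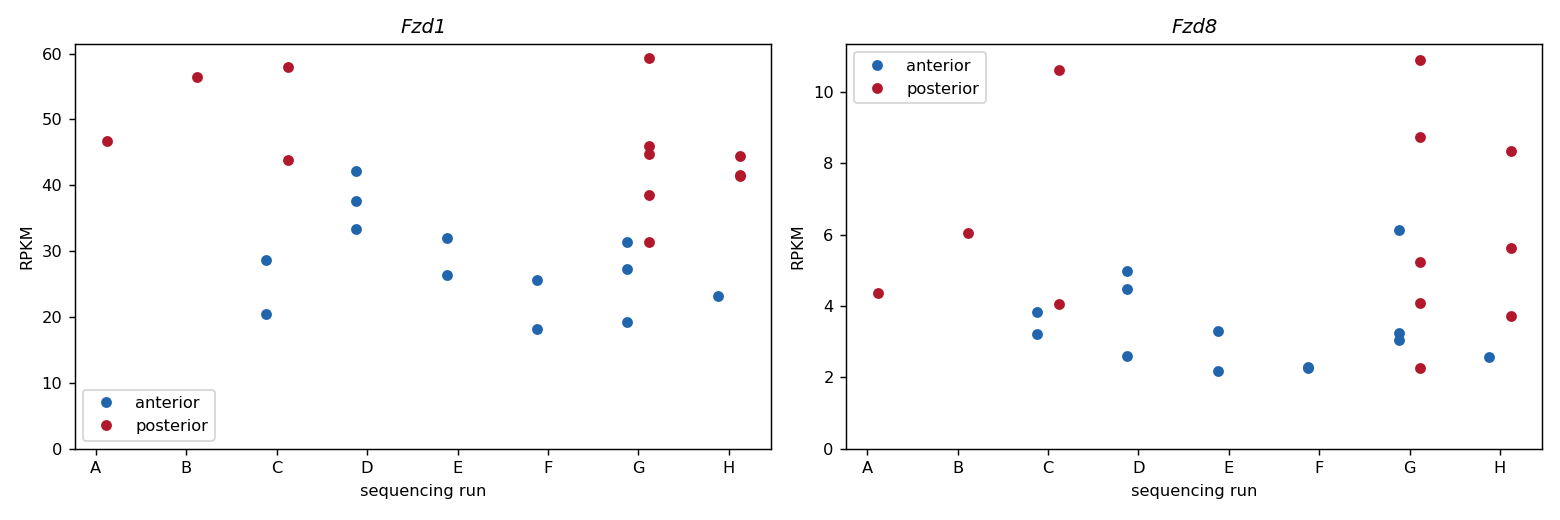
RPKM of Fzd1 (left) and Fzd8 (right) on linear axes against the 8 sequencing runs, lettered A to H in order of run name. Points are libraries, blue for anterior and red for posterior. In the 3 runs with both regions (C, G and H), Fzd1 posterior points lie above the anterior ones, and Fzd8 points of both regions overlap in run G.

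Compartment by compartment, few of these differences passed on their own. Within lateral, Fzd1 was higher in the posterior by 1.08 (SE 0.25, limma adjusted p = 0.0361), the single member called against 0.865% of all genes and 0.529% in this direction, with groups that did not overlap, as for 19.2% of genes. It lost the call when any 1 of the 6 lateral libraries was left out (adjusted p from 0.0548 to 0.265), without the tagged libraries (0.167), under median centring (0.0734), with no minimum (0.0975) and with run in the fit (1). Within nasal, Fzd8 was higher by 1.25 (SE 0.29, limma adjusted p = 0.029), again the single member against 1.91% of all genes and 0.697% in this direction, with groups that did not overlap, as for 20.2% of genes. That call was lost without anterior nasal replicate 3 or 4 or any 1 of the posterior nasal libraries (adjusted p up to 0.154), without the tagged libraries (0.212), under median centring (0.0716) or quantile normalization (0.0947), with no minimum (0.054) and with run in the fit (0.857).

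No member was called within medial (background 1.66%), where 3 had an unadjusted p under 0.05, as did 1726 of 11913 genes, nor within oral (background 0.512%), where 2 did (7.21% of all genes). The smallest p of these was that of Fzd4 within medial, with 6.31, 4.60 and 5.56 RPKM in the anterior and 12.3, 14.9 and 11.8 in the posterior. These groups did not overlap, as for 12.5% of genes, and the difference was 1.23 (SE 0.31, limma adjusted p = 0.0507). Within oral, where groups did not overlap for 8.89% of genes, Fzd8 differed by 1.09 (limma adjusted p = 0.237) and Fzd9 by 2.60 (limma adjusted p = 0.648). The median difference of all genes was -0.12 within medial, -0.03 within lateral, 0.11 within oral and 0.11 within nasal.

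**Figure D3:**
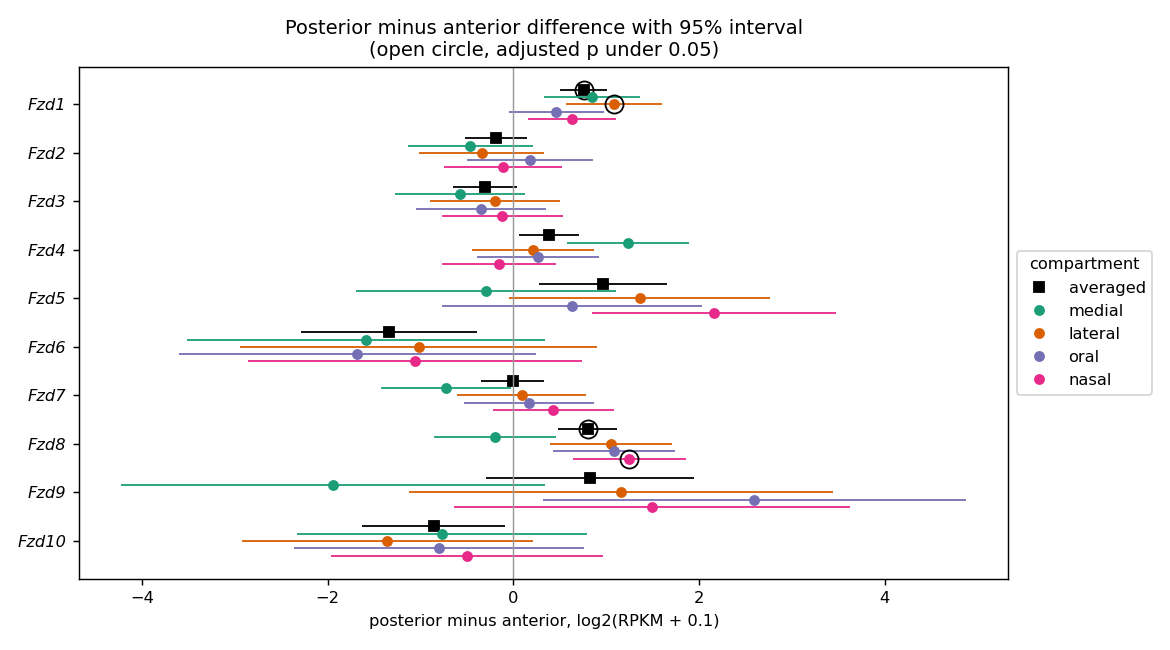
Posterior minus anterior difference in log2(RPKM + 0.1) (horizontal axis) for each Frizzled gene (vertical axis), averaged over compartments (black squares) and within each compartment (coloured points), with 95% intervals. Open circles mark adjusted p under 0.05, which Fzd1 reaches averaged and within lateral and Fzd8 averaged and within nasal.

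The remaining low members had wide intervals. Averaged over compartments, Fzd6 differed by -1.34 (95% interval -2.28 to -0.39, limma adjusted p = 0.115), Fzd5 by 0.96 (0.27 to 1.65, adjusted p = 0.119) and Fzd10 by -0.86 (-1.63 to -0.09, adjusted p = 0.255). For Fzd9 it was 0.83 (-0.30 to 1.95, adjusted p = 0.51). Fzd6 was listed at 0 in posterior medial replicate 2 and Fzd9 at 0 in anterior oral replicate 1. Posterior medial replicate 2 also had the lowest Fzd3 (4.04 RPKM) and Fzd7 (5.67 RPKM) of all libraries.

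The composition of the family shifted with Fzd1. Its share of the summed RPKM was lowest in the anterior lateral compartment (17.4% ± 2.51) and highest in the posterior medial (35.1% ± 4.96). Fzd2 exceeded Fzd1 in 12 of 13 anterior libraries and in 3 of 12 posterior libraries. The ratio of Fzd2 to Fzd1 was 1.76 ± 0.508 in the anterior and 0.958 ± 0.407 in the posterior, given as a description because Fzd1 was chosen for its difference.

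**Figure D4:**
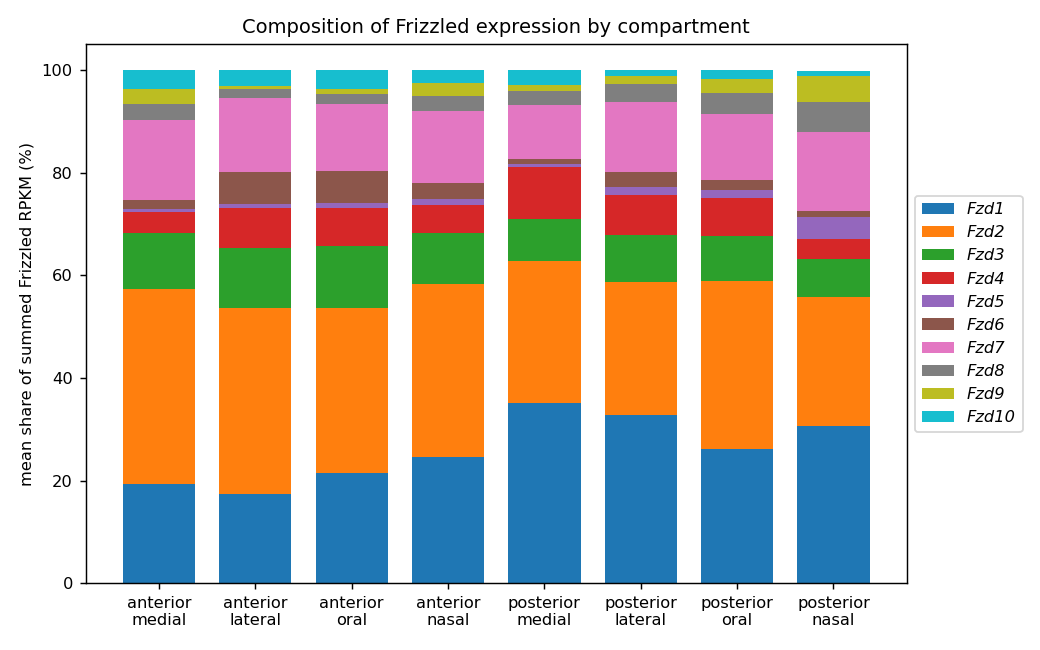
Mean share of each Frizzled gene in the summed RPKM of the 10 genes (vertical axis, percent, from 0) in the 8 compartments (horizontal axis). Fzd1, Fzd2 and Fzd7 together stay near 71.1%, while the Fzd1 segment is larger in the 4 posterior bars.

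Between the lateral and medial compartments of the anterior palate, Fzd6 was the member with a call, which rests on the minimum level. Its RPKM was 2.09, 1.82 and 3.28 in the medial libraries and 8.28, 7.64 and 8.16 in the lateral ones. Every lateral library exceeded every medial one, and lateral was higher by 1.75 (SE 0.21, limma adjusted p = 0.00691). This was the single member called of the 6 tested, against 2.51% of 10427 genes and 1.43% in this direction. Fzd6 passed the minimum of 5 RPKM in 3 libraries only through the lateral group, and with no minimum its adjusted p was 0.0513. In 1 fit of all 25 libraries the adjusted p was 1. Leaving out any 1 lateral library put Fzd6 below the minimum.

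Fzd4 was measured at 7.97, 10.5 and 11.3 RPKM in the anterior lateral compartment, against 6.31, 4.60 and 5.56 in the medial. The groups did not overlap, which held for 21.3% of genes tested, and the difference of 0.84 (SE 0.18) did not pass (limma adjusted p = 0.0613). The summed level of 8 endothelial markers was 173 to 198 RPKM in anterior lateral and 120 to 153 in anterior medial, and its part in the Fzd4 difference was not tested. The anterior lateral and medial libraries shared no sequencing run, so run and compartment cannot be told apart here.

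In the posterior palate no member was called between lateral and medial, where limma called 0 of 10324 genes (0%) and 0 of the 5 members tested had an unadjusted p under 0.05 (1.54% of all genes). The largest difference was Fzd7, by 0.65 (95% interval -0.67 to 1.97, limma adjusted p = 0.957). These compartments shared no run either. Whether the medial-lateral difference itself changed between anterior and posterior was tested as an interaction, and no member was called (background 0.0923%), with 2 members at an unadjusted p under 0.05 (4.22% of all genes). They were Fzd8 (1.25, limma adjusted p = 0.703) and Fzd4 (-1.02, limma adjusted p = 0.99).

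Oral and nasal compartments of the anterior palate gave no call among the 6 members tested, and limma called 0 of 10684 genes (0%). Of the members, 0 had an unadjusted p under 0.05 (2.98% of all genes). Fzd6 had the largest difference, with 12.8, 8.26 and 3.49 RPKM in oral and 6.82, 4.56, 5.35 and 1.37 in nasal. These values overlapped, and the difference was 0.86 (95% interval -0.54 to 2.27, limma adjusted p = 1).

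In the posterior palate none of the 8 members tested was called between oral and nasal by limma, against 1.25% of 10586 genes. Fzd1, Fzd3, Fzd5, Fzd7, Fzd8 and Fzd9 had higher means in nasal, and Fzd2 and Fzd4 in oral. Of the 8, 3 had an unadjusted p under 0.05, as did 8% of all genes. Fzd5 was at 2.96, 1.47 and 1.80 RPKM in oral and 11.2, 5.71 and 5.13 in nasal. The groups did not overlap, and oral minus nasal was -1.74 (SE 0.36, limma adjusted p = 0.0776). Fzd5 passed the minimum only through the nasal group. With the replicate number as a block it was called (adjusted p = 0.0356), and with run in a fit of all libraries it was not (limma adjusted p = 0.964). In the run of replicates oral 1 and nasal 1 the values were 2.96 and 11.2, and in the run of oral 2, oral 3 and nasal 2 they were 1.47, 1.80 and 5.71.

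Fzd8 differed by -0.78 (limma adjusted p = 0.487), Fzd1 by -0.48 (limma adjusted p = 0.782) and Fzd7 by -0.44 (limma adjusted p = 0.735) in the direction of nasal. Fzd9 averaged 4.51 RPKM ± 2.52 in oral and 8.95 ± 3.90 in nasal (limma adjusted p = 0.65). Fzd4 went the other way, with 9.33, 13.5 and 10.6 RPKM in oral and 5.25, 8.49 and 6.47 in nasal. These groups did not overlap, and the difference was 0.73 (limma adjusted p = 0.391). Groups that did not overlap were seen for Fzd4, Fzd5 and Fzd7 among the 8 members and for 11.8% of all genes.

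Markers of bone-forming cells and of vessels moved in the same directions between these compartments. All 5 osteoblast markers tested were lower in oral, and their summed level, with Spp1, was 92.8 to 121 RPKM in oral and 418 to 621 in nasal. Sp7, a transcription factor of osteoblasts, differed by -3.08 (limma adjusted p = 0.0046) and Runx2 by -1.18 (limma adjusted p = 0.0419). Endothelial markers summed to 152 to 220 RPKM in oral and 68.2 to 112 in nasal, and Emcn was higher in oral by 1.58 (limma adjusted p = 0.0401). The part of these cells in the Fzd5, Fzd8 and Fzd4 differences was not tested. The oral-nasal difference was not called as changed between anterior and posterior for any member (background 0.0755%), and 0 members had an unadjusted p under 0.05 (2.49% of all genes).

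Other components of Wnt signalling were followed along the anterior-posterior axis in the comparison averaged over compartments. In it 4.94% of all genes were called, and 2.38% were called as higher in the posterior. Of 19 Wnt ligands, 5 reached the minimum, of which 3 were lower and 1 higher in the posterior, with a median difference of -0.65 beside 0.01 over all genes. Wnt5a, a ligand of planar polarity signalling, had the highest level of the 19, at 78.2 RPKM ± 19.2 in the anterior and 20.8 ± 7.07 in the posterior, a difference of -1.99 (limma adjusted p = 7.67e-06). Wnt2 fell by 2.74 on the log2 scale (limma adjusted p = 5.51e-07) and Wnt9a by 0.65 (limma adjusted p = 0.0137). Wnt11 was higher by 2.17 (limma adjusted p = 2.34e-07), from 1.33 RPKM ± 0.936 to 5.11 ± 1.93. Its highest anterior value was 3.22 RPKM, so Wnt11 reached the minimum only through the posterior, where it is high. Wnt2 and Wnt9a reached it mainly through the anterior, with highest posterior values of 5.65 and 5.9 RPKM. The counts of called ligands are therefore a description.

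Among secreted Frizzled-related proteins, which bind Wnt proteins outside the cell, 2 of 4 tested were lower in the posterior and none higher (median -0.44). The share of all genes called in this comparison was 4.94%. Sfrp4 differed by -2.27 (limma adjusted p = 0.00598) and Frzb by -0.77 (limma adjusted p = 0.0121). Sfrp2 was the most abundant, at 376 RPKM ± 180 in the anterior and 483 ± 202 in the posterior. Of 11 co-receptors and turnover genes tested 2 were lower, the R-spondin receptors Lgr4 (-0.70, limma adjusted p = 0.00157) and Lgr6 (-1.80, limma adjusted p = 0.0292). Lgr6 reached the minimum only through the anterior, where it is high, as its highest posterior value was 2.82 RPKM. Of 10 planar cell polarity genes Prickle2 was lower (-0.96, limma adjusted p = 0.00136) and Prickle1 higher (0.69, limma adjusted p = 0.0212). Medians were 0.01 for the co-receptor and turnover genes and -0.11 for the polarity genes. None of 12 genes of signal transduction below Frizzled was called with limma. None of the 3 Norrin pathway genes tested, Fzd4 among them, was called.

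Of 10 epithelial markers tested in the same comparison (4.94% of all genes called) 2 were lower in the posterior, among them the keratin Krt8 (-2.68, limma adjusted p = 0.000155). The summed level of the epithelial markers ranged from 54.6 to 167 RPKM over the anterior compartments and from 30.9 to 192 over the posterior ones. Of 6 osteoblast markers 1, Runx2, was higher in the posterior, by 0.89 (limma adjusted p = 0.0128). The list medians were -0.80 for epithelium and 0.65 for osteoblast markers, and 0 of 8 endothelial markers were called by limma (median -0.23). Of 3 cartilage markers tested 1, the collagen Col2a1, was higher in the posterior by 1.25 (limma adjusted p = 8.18e-05), at 14.6 RPKM ± 7.24 in the anterior and 31.3 ± 10.3 in the posterior. The cartilage markers summed to 7.67 to 35.1 RPKM over the anterior compartments and 22.3 to 81.5 over the posterior ones. Among 7 mesenchyme markers Col1a1 was higher (0.49, limma adjusted p = 0.0226) and Prrx1 lower (-0.68, limma adjusted p = 0.0408). The part of these cells in the Fzd1 and Fzd8 differences was not tested. Within medial the Fzd1 difference was 0.85 (limma adjusted p = 0.0998). Osteoblast markers summed to 77.5 to 113 RPKM in anterior medial and 67.6 to 78.5 in posterior medial. The sums were 62.1 to 184 in anterior lateral and 53.8 to 171 in posterior lateral. They were 46.4 to 78.6 in anterior oral, 92.8 to 121 in posterior oral, 101 to 146 in anterior nasal and 418 to 621 in posterior nasal.

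Likeness of pattern was measured as Pearson's r of log2(RPKM + 0.1) across the 25 libraries, which share compartments and runs, over 11913 genes. Fzd1 was most like Fndc1 (0.842), Psat1 (0.828) and Gdf10 (0.818), and Fzd8 most like Olfml3 (0.804), Ptprv (0.80) and Gdf10 (0.771). Fzd4 was most like Nlgn1 (0.78), Icam2 (0.768) and Peli2 (0.755), and Fzd6 most like Nr3c2 (0.89), Smtnl2 (0.883) and Uevld (0.871). Fzd5 was most like Kctd12 (0.824), Pak3 (0.801) and Cmya5 (0.767). For Fzd7 the first gene was St6galnac4 (0.94), for Fzd3 Gm20257 (0.922), for Fzd2 Mgat1 (0.872), for Fzd9 Fbln2 (0.855) and for Fzd10 Ctbp2 (0.793). Among the 45 pairs of members the highest values were Fzd3 with Fzd6 (0.799), Fzd5 with Fzd8 (0.677) and Fzd1 with Fzd8 (0.644).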

How the data were processed

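RNA from the 25 laser captured libraries was amplified, tagmented and sequenced by the authors as single-end reads of 50 bases. The authors deposited RPKM values made in GeneSpring, having discarded duplicates and reads that aligned to several places. The submitters' processing notes name TopHat and mm9. Read counts were not used here. Totals of reads were implied from the steps between RPKM values, and 275 of 276 checks of library ratios agreed. For Fzd4 no whole steps were found. Such totals cover counting error only, and limit the precision of low members.

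Groups and replicate numbers came from the labels, and the runs from alignment names. No source used here says which libraries share embryos, so p-values measure the spread between libraries. limma 3.58.1 in R 4.3.3 was fitted to log2(RPKM + 0.1), with Benjamini-Hochberg adjustment over all genes tested and calls at 0.05. Pairs of compartments used genes that reached 5 RPKM in 3 or more compared libraries. The tests were checked on simulated data. Levels and figures used Python 3.11.15, pandas 2.3.3, numpy 2.4.6 and matplotlib 3.10.9. Named genes outside the family are list members with an adjusted p under 0.05, at most 4 a list and comparison by fold change, and the 3 genes most alike in pattern. Sfrp2 was added after its values were seen. Some marker genes of these lists are not reported here. The members and lists were chosen with earlier results of these data known. Alternatives were pseudocounts of 1 and 0.01, median centring, quantile normalization, no minimum, the replicate block, run as a covariate, 1 fit of all libraries, and leaving out libraries.

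Deviations of same-numbered libraries correlated at 0.239, 0.215 and 0.13 in anterior oral and nasal, where the replicate block changed no call. The highest correlation there was between differently numbered libraries of the same run, oral 2 and nasal 3 (0.504). Oral 3 and nasal 4, also of the same run, had 0.15. The remaining differently numbered pairs lay between -0.36 and 0.072, among them oral 1 and nasal 2 (-0.0496), also of the same run. The same-numbered oral 1 and nasal 1 (0.239) shared a run as well. These correlations do not settle whether the replicate number is a pairing.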

Additional observations from a re-analysis of the deposited data

How the results depend on the processing

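Of 1184 alternative values for single genes, 1126 kept direction and side of the threshold, 34 lost and 11 gained the call and 13 changed sign. Counts of called Frizzled genes moved as follows. For anterior lateral against medial the count fell from 1 to 0 with no minimum, in 1 fit of all libraries and with run as covariate (where the compartments share no run and the Fzd6 difference, 2.65 with SE 1.71, comes through other compartments), and was 0 to 1 when 1 library was left out. For anterior against posterior within medial it rose from 0 to 1 under a pseudocount of 1, median centring or quantile normalization, and lay between 0 and 2 with 1 library left out (2 without posterior medial replicate 3). Within lateral it fell from 1 to 0 under median centring, no minimum, run, the 6 libraries tagged Tgfbr2_WT or ERK2_WT left out and each library left out (0 to 0). Within nasal it rose to 2 under a pseudocount of 1 and fell to 0 under median centring, quantile normalization, no minimum, run and without the 6 libraries, with 0 to 1 over libraries left out. For any difference among compartments it fell from 3 to 0 with run and to 1 without the 6 libraries. Averaged over compartments it rose from 2 to 4 under a pseudocount of 1, with Fzd5 and Fzd6 added, and fell to 1 with run.

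With the replicate number as a block, the count was 1 for posterior oral against nasal (Fzd5, adjusted p = 0.0356), 2 within medial and 0 within nasal, and no other count moved. Outside anterior oral and nasal, same-numbered correlations did not all pass 0.1, although posterior oral and nasal replicates 1 and 2 each share a run.

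Fzd7 between anterior and posterior (-0.01) changed sign under quantile normalization (0.0032) and run (0.0524), and ranged from -0.063 to 0.143 with 1 library left out, the highest without posterior medial replicate 2. Fzd8 within medial was 0.158 under quantile normalization and ranged from -0.376 to 0.119 with 1 library left out. The cause was not tested. Low members rest on few reads, which limits Fzd5, Fzd6, Fzd8, Fzd9 and Fzd10 most.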
